A study of Bos taurus with 8 samples.

Results

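The mRNAs of splicing factors and spliceosome proteins were described in fetal calf liver after low or high maternal nutrition. Members were the genes whose symbol begins with SRSF, SF3A, SF3B, HNRNP, SNRP, PRPF, U2AF or LSM (SRSF and LSM followed by a digit), taken through the RefSeq mRNA accession of each array probe. The array held 203 probes for 71 such genes, of 12603 genes to which probes were matched, and all 203 probes were detected. By subfamily these were 9 SRSF, 18 HNRNP, 12 SNRP, 9 SF3A and SF3B, 9 PRPF, 3 U2AF and 11 LSM genes. For further genes that fit the rule, among them HNRNPA0, HNRNPA2B1, LSM11, LSM14B, PRPF38B, PRPF40B, PRPF4B, SRSF12 and SRSF2, no probe was matched, and they were not analysed here. Liver RNA came from 4 low-nutrition (LN) and 4 high-nutrition (HN) Japanese Black fetuses, each hybridised in 1 colour to its own Agilent bovine array according to the sample labels, whereas the design text of the series mentions RNA pooled by treatment. Dams of LN fetuses received 60% of the nutritional requirement through gestation, dams of HN fetuses received 120%, and the fetuses were collected 8.5 months after conception. No group on a 100% ration was analysed here. All dams were inseminated with male-sorted semen of the same sire, and the lightest LN and heaviest HN fetuses were taken, so the groups were also selected by weight.

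Introns are cut from precursor mRNA by the spliceosome, which is built from small nuclear ribonucleoproteins (snRNPs), each a short RNA with a ring of Sm or LSM proteins and proteins of its own. U2AF and SF3B fix the end and the branch site of an intron, and PRPF proteins of the tri-snRNP bring in the catalytic core. SR proteins (SRSF genes) mostly favour, and heterogeneous nuclear ribonucleoproteins (hnRNPs) often oppose, the use of nearby exons, and nearly every cell type expresses both.

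Levels are quantile-normalized log2 signals, a difference is the LN mean minus the HN mean on that scale, and each gene is represented by its brightest detected probe. The LN arrays shared 1 slide and the HN arrays a different slide, so slide, scan and maternal nutrition cannot be told apart. Between 32635 and 34369 of 43803 spots per array were well above background, and precision is limited by how many arrays there were. The tissue was liver by its markers, since all 11 hepatocyte markers on the array were detected and their median difference was 0.007. LN fetus L5 stood apart in erythroid markers, with a median signal 3.18 above the genes' means, against -1.52 to 0.24 in the other fetuses. In whole tissue, fewer cells of a type and less RNA per cell cannot be told apart.

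Most splicing factor mRNAs were slightly higher in LN liver, by amounts that did not pass the test gene by gene. Of the 71 genes, 51 were higher and 20 lower in LN, which is 71.8% higher against 51.6% of 10861 detected genes. Their median difference was 0.079, against 0.007 for all genes, and the differences ran from -0.25 for SRSF5 to 0.41 for HNRNPAB. With limma, 0 members reached an adjusted p of 0.05 and the lowest was 0.760, while 0.0% of all genes were called. At an unadjusted limma p of 0.05 or less, 3 members were higher in LN (HNRNPU, SF3B3 and SNRPD1; background 3.3% of all genes) and 0 were lower (background 2.75%). The LN and HN fetuses did not overlap for 5 members, all higher in LN (HNRNPU, SF3B3, SNRPD1, SNRPD3 and SNRPG; background 2.59%), and for 0 members lower in LN (background 1.56%). HNRNPAB, LSM10 and HNRNPU differed by more than 0.32, the log2 of the smaller fold limit of the study (background 7.82% of all genes higher), and 0 members were lower by as much (background 8.63%). The 95% interval of the difference lay within 1.5-fold in either direction for 61 members, or 85.9%, against 57.9% of all genes. Members were also brighter than all genes (median signal 11.55 against 9.37) and had smaller SEs (median 0.124 against 0.165). How far signal level accounts for these shares was not tested.

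**Figure D1:**
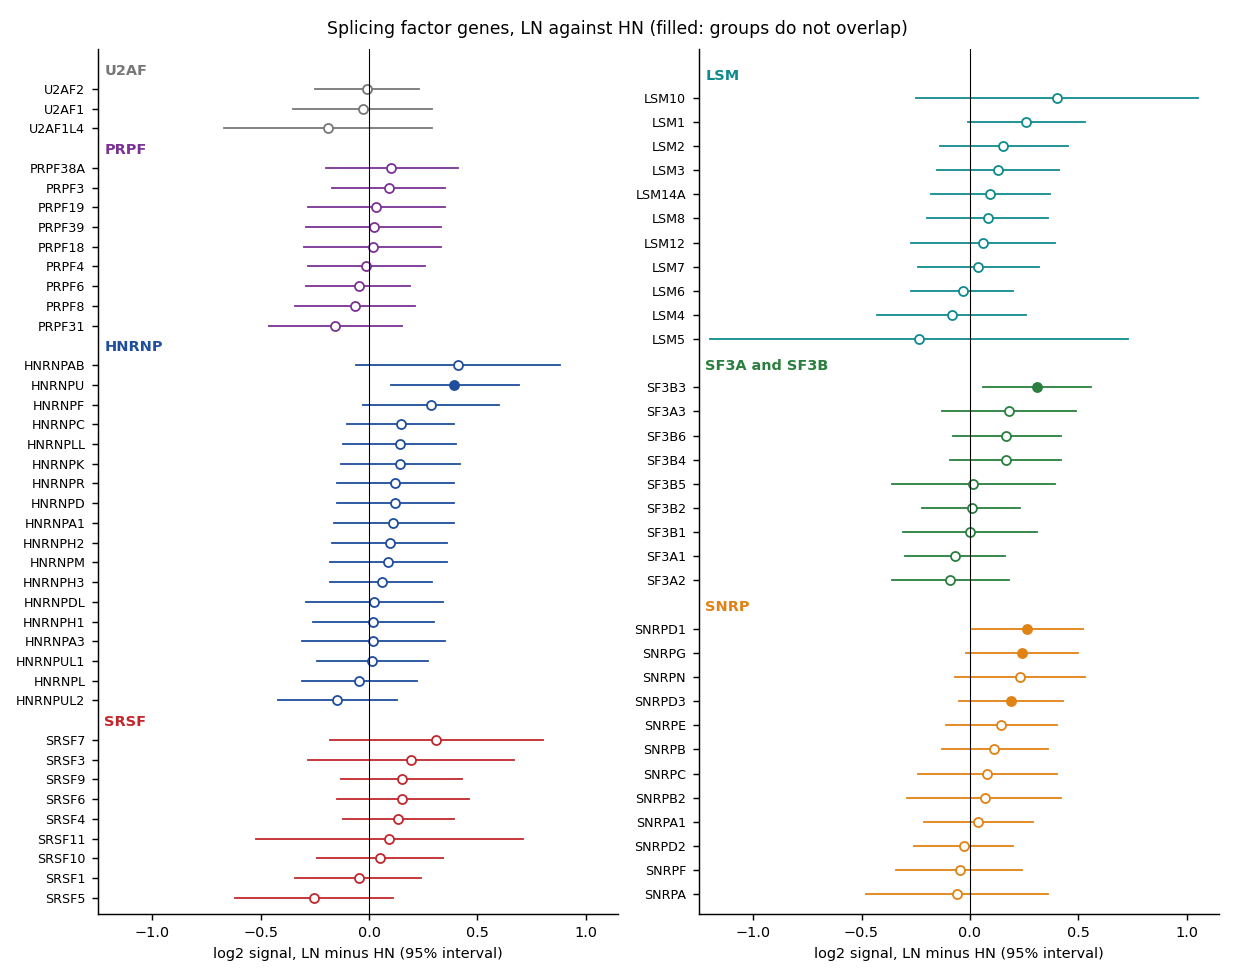
Difference in log2 signal, LN minus HN, for 71 splicing factor genes by subfamily, as points with 95% limma intervals. Filled points mark the 5 genes whose LN and HN fetuses did not overlap, and the 3 U2AF genes all lie below 0 while 16 of 18 HNRNP genes lie above it.

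The Sm proteins ring the RNA of the U1, U2, U4 and U5 snRNPs. For 3 of 8 Sm genes the LN and HN fetuses did not overlap, all higher in LN (background 2.59% of all genes). This role group was formed after the values were seen, so the count is no test of the group. Of 8 Sm genes 6 were higher in LN, with a median difference of 0.165. In the order L5, L6, L8 and L9 for LN and L1, L2, L3 and L10 for HN, SNRPD1 was at 12.62, 12.51, 12.63 and 12.57 in LN and at 12.30, 12.42, 12.42 and 12.14 in HN. Every LN fetus was above every HN fetus, and HN fetus L10 was the lowest. The SNRPD1 difference was 0.26 (SE 0.11), or 1.20-fold, with limma adjusted p = 0.785 and exact permutation p = 0.0286, the smallest that 4 against 4 fetuses can give in a 2-sided test. Every gene without overlap has this permutation p, here and below, so it only restates the separation and is not adjusted for the number of genes. SNRPD3 was at 13.10, 13.10, 13.07 and 13.07 in LN and at 12.95, 12.93, 12.98 and 12.74 in HN, with a difference of 0.19 (SE 0.105) and limma adjusted p = 0.799. The LN values were within 0.03 of each other, and L10 was again the lowest. SNRPG was at 13.54, 13.38, 13.36 and 13.42 in LN and at 13.12, 13.29, 13.31 and 13.01 in HN, with a difference of 0.24 (SE 0.12) and limma adjusted p = 0.787. SNRPG has a single probe here, whereas all probes of SNRPD1 (3) and SNRPD3 (2) were higher in LN.

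The other Sm genes overlapped between groups. SNRPE was higher by 0.14 (SE 0.11), with HN fetus L2 at 12.97 beside 12.69 to 12.71 in the other HN fetuses. SNRPB, which codes for SmB, was higher by 0.11 (SE 0.11) and reached 13.75 in L8. SNRPN, an imprinted gene expressed from the paternal allele whose protein can take the place of SmB, was at 10.94, 10.88, 11.01 and 10.65 in LN and at 10.60, 10.86, 10.46 and 10.64 in HN. L2 was the exception in HN and L9 in LN, and the difference was 0.23 (SE 0.13, limma adjusted p = 0.803). SmB and SmN are close relatives, and whether their probes tell them apart was not tested. SNRPD2 (-0.03) and SNRPF (-0.05) were the Sm genes with lower means in LN, and the 95% interval of SNRPD2 ran from -0.26 to 0.20.

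The groups also overlapped for the brightest probes of proteins that belong to single snRNPs. SNRPC and SNRPA, which belong to the U1 snRNP that recognises the start of the intron, differed by 0.079 (SE 0.14) and -0.060 (SE 0.19), and SNRPC by 0.021 without L5 and 0.17 without L6. SNRPA scattered widely, from 9.76 to 10.36 in LN and from 9.77 to 10.39 in HN. SNRPA1 and SNRPB2 of the U2 snRNP differed by 0.038 and 0.069. For SNRPB2 the dimmest of 3 probes gave 0.88 and stood apart between groups, at 7.60 to 8.05 in LN and 5.92 to 7.57 in HN, where L10 was the 5.92. The brightest probe of that gene overlapped, with 11.16 to 11.55 in LN and 11.10 to 11.67 in HN.

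SF3B3, a scaffold subunit of the SF3B complex that holds the branch site, also separated the groups. Its signal was 13.46, 13.53, 13.58 and 13.62 in LN and 13.34, 13.27, 13.29 and 13.07 in HN. All LN fetuses lay above all HN fetuses, and L10 was lowest. The difference was 0.31 (SE 0.11), or 1.24-fold, with limma unadjusted p = 0.0222, limma adjusted p = 0.760 and exact permutation p = 0.0286. All 5 SF3B3 probes were higher in LN, by 0.046 to 0.32. Other subunits of the same complex did not follow to the same extent. SF3B1, the subunit that touches the branch site, had the same mean in both groups (12.48, 95% interval of the difference -0.31 to 0.31), and its 8 probes split 4 higher and 4 lower. SF3B4 and SF3B6 were each higher by 0.17 (SE 0.11), while SF3B2 and SF3B5 differed by 0.008 and 0.015. In the SF3A complex, which joins SF3B in the U2 snRNP, SF3A3 was higher by 0.18, and SF3A1 (-0.067) and SF3A2 (-0.090) were lower. Differences between subunits were not tested against each other.

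The U2AF genes were the only subfamily with no member higher in LN. U2AF2, the large subunit that binds the polypyrimidine tract, was at 15.31, 15.48, 15.51 and 15.46 in LN and at 15.46, 15.34, 15.52 and 15.48 in HN. The groups coincided, with a difference of -0.010 and a 95% interval from -0.25 to 0.23. U2AF1, the small subunit that reads the last bases of the intron, differed by -0.027 (95% interval -0.35 to 0.29). U2AF1L4, a relative of the small subunit, was lower by more (-0.19, SE 0.21), but its HN fetuses alone spread from 5.84 to 6.86, and the difference was -0.050 without L10 and -0.39 without L3. Dim U2AF2 probes pointed the other way, up to 0.34, and the sign of U2AF2 also turned under other settings (0.007 with scaling to the 75th percentile and 0.11 with the mean over its probes).

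Of the 5 PRPF genes for proteins of the U4/U6.U5 tri-snRNP, 4 had differences below 0 (median -0.048). The list of other U snRNP proteins, which holds further tri-snRNP proteins such as EFTUD2 (0.080) and SNRNP200 (0.078), named after their values were seen, was 14 higher and 7 lower, with a median of 0.078. PRPF8, the U5 protein that forms the cavity of the active site, was at 14.61, 14.74, 14.64 and 14.48 in LN and at 14.65, 14.84, 14.74 and 14.50 in HN. The groups overlapped almost fully, the difference was -0.065 (SE 0.12), and all 4 of its probes were lower. Without L2 the PRPF8 difference was -0.013, and without L10 it was -0.127. PRPF31, a U4/U6 protein known for retinitis pigmentosa when mutated, was at 9.33, 9.32, 9.72 and 9.40 in LN and at 9.44, 9.69, 9.52 and 9.74 in HN. L8 overlapped with HN, the other LN fetuses lay below all HN fetuses, and the difference was -0.16 (SE 0.135, limma adjusted p = 0.864), with all 3 probes lower. PRPF6, which bridges U5 and U4/U6, differed by -0.048, and PRPF3 of U4/U6 by 0.090 (0.05 without L2 and 0.14 without L1). Outside the tri-snRNP, PRPF19, a ubiquitin ligase of the active spliceosome, differed by 0.032, and PRPF38A by 0.10 (0.05 without L9 and 0.21 without L5). PRPF38A is a case where the brightest probe was the smallest of 4 in difference, since its other probes gave 0.22 to 0.30 and 1 of them separated the groups, at 8.77 to 9.18 in LN and 8.58 to 8.71 in HN.

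Among LSM genes, the 7 of the ring that binds U6 RNA were split 4 higher and 3 lower, with a median of 0.038. LSM2, LSM3 and LSM8 were higher by 0.15 (SE 0.13), 0.13 (SE 0.125) and 0.083 (SE 0.12), LSM4 differed by -0.085 (SE 0.15), and LSM6 and LSM7 were within 0.04 of 0. Without L5 the differences of LSM2 and LSM8 were 0.087 and 0.018, and without L10 that of LSM4 was -0.011. LSM5 had the widest spread of any member within LN, at 9.75, 9.63, 8.87 and 7.67, against 8.75, 9.44, 9.35 and 9.32 in HN. Its difference of -0.24 (SE 0.43) rested on L9, since without L9 it was 0.20. The 4 LSM genes outside that ring were all higher in LN. LSM1, which replaces LSM8 in the cytoplasmic ring that starts mRNA decay, was at 9.52, 9.28, 9.44 and 9.21 in LN and at 9.22, 9.11, 9.13 and 8.97 in HN. Only L9 fell inside the HN range, by 0.01, and the difference was 0.26 (SE 0.12, limma adjusted p = 0.785, exact permutation p = 0.0571). LSM10, a subunit of the U7 snRNP that processes histone mRNA, was at 11.16, 11.19, 11.08 and 11.77 in LN and at 11.43, 10.36, 11.34 and 10.46 in HN. The HN fetuses formed a high and a low pair on either side of most LN fetuses, which leaves the difference of 0.40 with an SE of 0.285, and it was 0.22 without L2.

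Of the SR proteins, 7 of 9 were higher in LN (51.6% of all genes), with a median of 0.13 (0.068 without L10). There were 0 genes without overlap (background 2.59% of all genes higher and 1.56% lower in LN). SRSF7 and SRSF3, closely related SR proteins that also act in mRNA export, had the largest differences among those higher in LN, 0.31 (SE 0.22) and 0.19 (SE 0.21). SRSF7 was at 12.29, 11.27, 11.89 and 11.76 in LN and at 11.74, 11.42, 11.57 and 11.25 in HN. SRSF3 was at 11.86, 10.98, 11.72 and 11.18 in LN and at 11.34, 11.38, 11.21 and 11.03 in HN. In both genes L5 was the highest and L6 nearly or fully the lowest of the 8 fetuses, so the LN group spanned nearly the whole HN range. Without L5 the differences of SRSF7 and SRSF3 were 0.15 and 0.051, and without L6 they were 0.49 and 0.35. SRSF11, an SR-related protein, ran the other way within LN, with L6 at 13.63 and L5 at 12.56. Its groups overlapped throughout (difference 0.093, SE 0.27).

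SRSF5 had the most negative difference of all members. It was at 10.88, 11.16, 10.82 and 10.85 in LN and at 11.24, 11.25, 10.81 and 11.44 in HN. HN fetus L3 lay below all LN fetuses and the other HN fetuses above them, giving -0.25 (SE 0.16, limma adjusted p = 0.821). The difference was -0.38 without L3 and -0.17 without L10, which was the highest fetus here in contrast to most members. SRSF1, the best known SR protein, differed by -0.048 (95% interval -0.34 to 0.24), with LN between 11.82 and 11.95 and HN between 11.71 and 12.18. SRSF4, SRSF6 and SRSF9 were higher by 0.13 to 0.15, and SRSF10, a repressor when dephosphorylated in heat shock, by 0.052.

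Of the heterogeneous nuclear ribonucleoproteins 16 of 18 were higher in LN (88.9%, the highest share of the 7 subfamilies), with a median of 0.10 (0.062 without L10). HNRNPU, a nuclear scaffold protein that binds RNA and chromatin, was at 12.66, 12.46, 12.42 and 12.35 in LN and at 12.17, 12.06, 12.24 and 11.85 in HN. The lowest LN fetus was above the highest HN fetus, with L5 and L10 at the extremes. The difference was 0.39 (SE 0.13), or 1.31-fold, with a 95% interval from 0.10 to 0.69, limma unadjusted p = 0.0147, limma adjusted p = 0.760 and exact permutation p = 0.0286. All 6 HNRNPU probes were higher, by 0.18 to 0.455. HNRNPAB, a relative of HNRNPD, was at 14.16, 13.71, 13.97 and 13.97 in LN and at 13.80, 13.49, 13.88 and 12.98 in HN. L10 alone was more than 0.5 below the other HN fetuses, and the difference of 0.41 (SE 0.21) became 0.225 without it, although all 4 probes were higher in LN.

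HNRNPF, which binds runs of guanines, was higher by 0.29 (SE 0.14, limma adjusted p = 0.787), with HN fetus L3 (13.43) inside the LN range of 13.34 to 13.54. Its relatives HNRNPH1, HNRNPH2 and HNRNPH3 were higher by 0.019, 0.095 and 0.058. HNRNPC, which binds uridine tracts, was at 11.94, 12.02, 12.07 and 11.88 in LN and at 11.88, 11.93, 11.73 and 11.77 in HN. Only L2 and L1 reached the LN range, and the difference was 0.15 (SE 0.11, exact permutation p = 0.0571, limma adjusted p = 0.839). HNRNPK, which binds cytosine-rich RNA, was higher by 0.14 (SE 0.12), HNRNPA1, an antagonist of SR proteins, by 0.11 (SE 0.12) and HNRNPD, known for binding unstable mRNAs, by 0.12 (SE 0.12). These became 0.073 for HNRNPK without L10, 0.064 for HNRNPA1 without L6 and 0.062 for HNRNPD without L5. HNRNPUL2 (-0.15, SE 0.12) and HNRNPL (-0.045, SE 0.115) were the genes with lower means in LN. The HNRNPUL2 difference was -0.077 without L8 and -0.21 without L9. HNRNPUL1, at 0.015, was lower (-0.094) when its 4 probes were averaged.

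**Figure D2:**
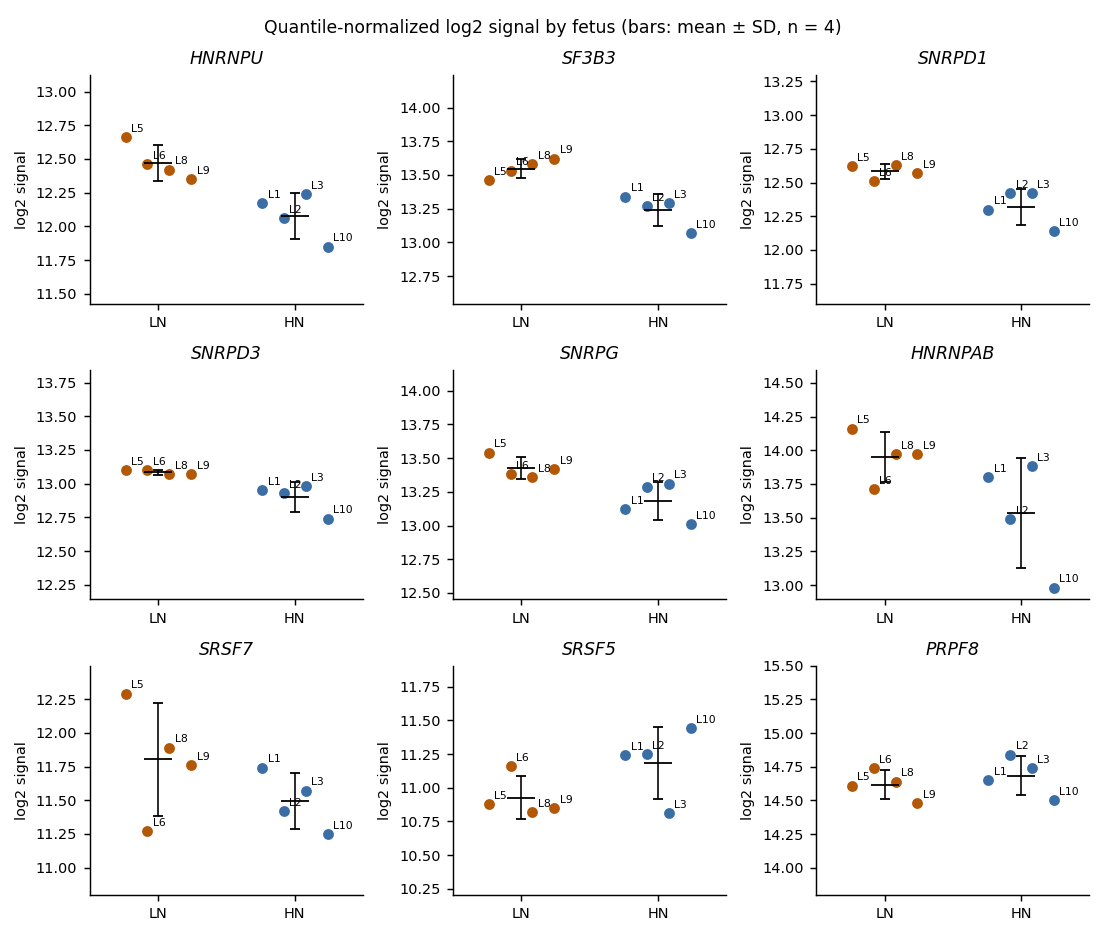
Quantile-normalized log2 signal of 9 genes by fetus, LN in orange and HN in blue, with mean and SD (n = 4) as black bars. The first 5 genes show no overlap between groups, SRSF7 has LN fetus L6 near the bottom and the other LN fetuses above every HN fetus, SRSF5 is the most negative member and PRPF8 overlaps almost fully.

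Several probes of a gene gave a second look at the direction, although they share the RNA of the same fetuses. Of the 203 probes 147 were higher in LN, or 72.4%, against 50.8% of matched detected probes. Of 55 members with more than 1 probe, 29 were higher with every probe (52.7%, against 34.6% of all genes with several probes), 7 were lower with every probe (12.7% against 33.2%) and 19 were split (34.5% against 32.2%). The 7 uniformly lower genes were HNRNPL, LSM4, LSM6, PRPF8, PRPF31, SNRPA and SRSF5. Every probe was higher for 11 of 16 such HNRNP genes (68.8%) and for 7 of 9 such LSM genes (77.8%). The count was 5 of 9 for SNRP (55.6%) and 2 of 5 for SF3A and SF3B genes (40.0%). It was 2 of 7 for SRSF and for PRPF genes (28.6% each) and 0 of 2 for U2AF genes. An unadjusted limma p of 0.05 or less with a higher LN mean was found for 10 of 203 member probes and for 702 of 22392 matched detected probes. No member probe was lower at that p, so in either direction the share was 4.93% of member probes against 5.77% of matched probes. Besides the genes above, HNRNPDL, an hnRNP that targets its own mRNA, had a pair of probes at 0.38 and 0.43, while its brightest probe gave 0.025.

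**Figure D3:**
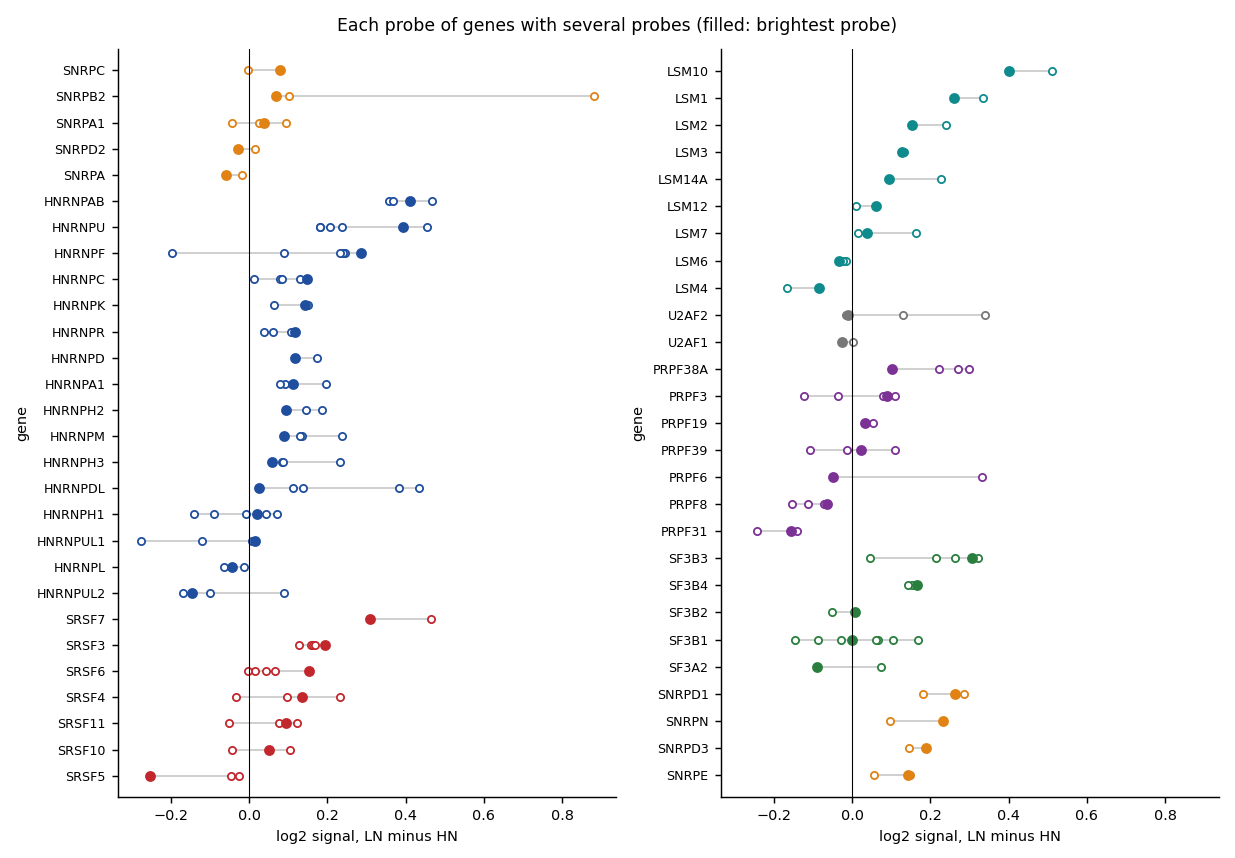
Difference in log2 signal, LN minus HN, for each probe of 55 genes with several probes, with the brightest probe filled. Probes of HNRNPU, HNRNPAB and SF3B3 all lie above 0, those of PRPF8, PRPF31 and SRSF5 below it, and SNRPB2, HNRNPF, U2AF2 and PRPF6 hold probes far apart from each other.

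By fetus, the members' median signal relative to each gene's mean was 0.055, 0.029, 0.057 and 0.035 in L5, L6, L8 and L9 and -0.044, 0.014, 0.001 and -0.14 in L1, L2, L3 and L10. The LN fetuses lay above the HN fetuses without overlap, but L2 and L3 were only slightly below them, and L10 was far below. L10 was the lowest of the 8 fetuses in 27 of 71 members (38.0%), against 17.5% of all genes, and L5 was the highest in 17 (23.9% against 16.3%). Without L10 the members' median difference was 0.042 against 0.009 for all genes, and 64.8% of members were higher against 52.3%. Then 0 members were higher by more than 0.32, a count not made over all genes for that setting. At an unadjusted limma p of 0.05 HNRNPU remained and SF3B3 and SNRPD1 did not. The share of all genes higher at that p also fell, from 3.3% to 1.89%. The 5 genes without overlap had differences of 0.32 (HNRNPU), 0.25 (SF3B3), 0.20 (SNRPD1), 0.135 (SNRPD3) and 0.185 (SNRPG) without L10. Without L5 the median difference was 0.066, and 70.4% of members were higher.

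**Figure D4:**
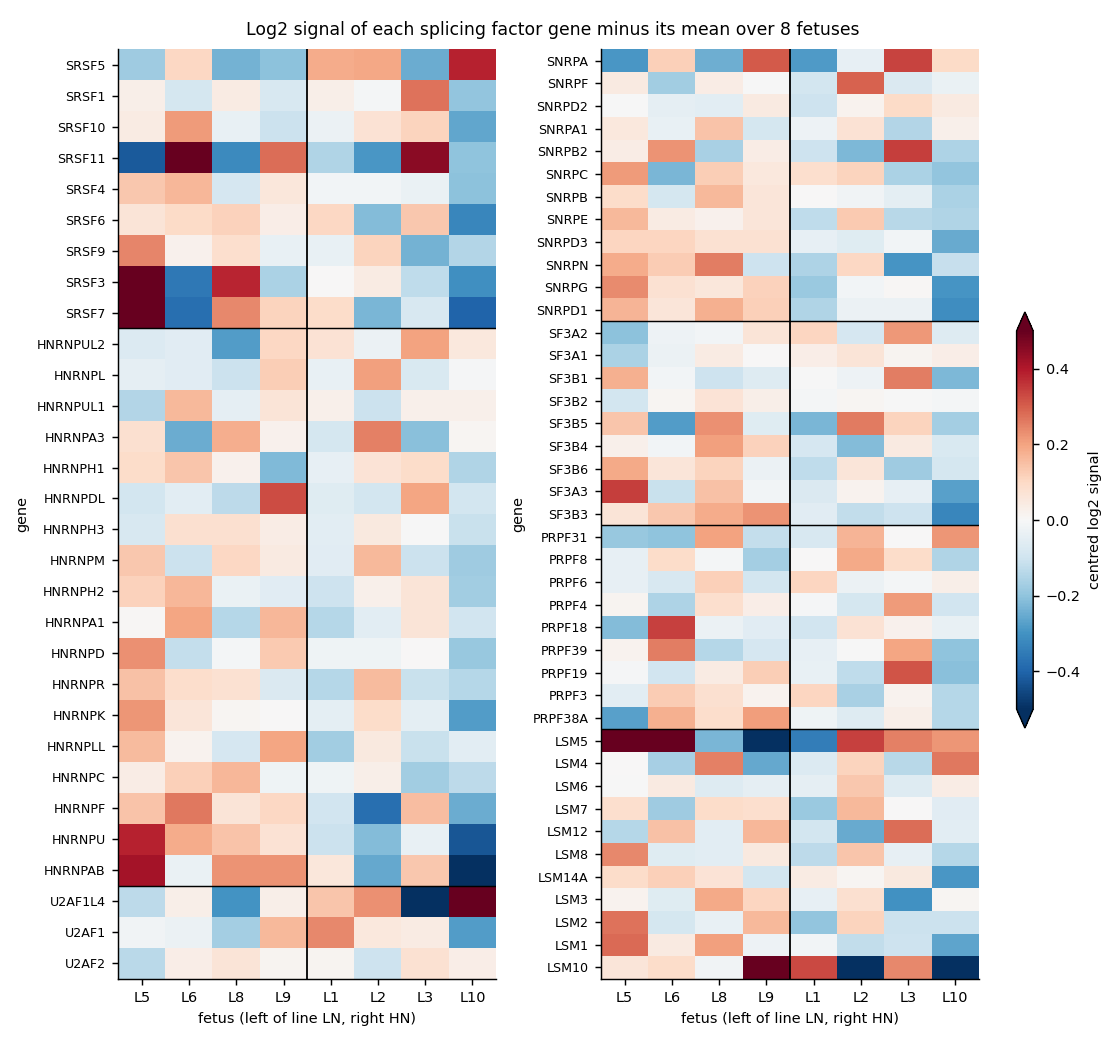
Log2 signal of each of 71 genes minus its mean over 8 fetuses, red above and blue below, with colour saturating at 0.5 in either direction, LN fetuses left of the line and lines between subfamilies. The L10 column is blue for most SRSF, HNRNP and SNRP genes, and SRSF3, SRSF7 and SRSF11 vary most between L5 and L6.

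Among subfamilies, the medians by fetus did not overlap for SNRP genes (0.051 to 0.10 in LN, -0.15 to -0.002 in HN) and, in the opposite direction, for the 3 U2AF genes (-0.17 to 0.028 in LN, 0.036 to 0.14 in HN). The U2AF medians were nearly in contact, each of the 3 genes overlapped between groups, and 3 of 7 U2AF probes were higher in LN. They overlapped for SRSF, HNRNP, SF3A and SF3B, PRPF and LSM genes. For LSM genes L2 stood at 0.11, above every LN fetus, while the other HN fetuses were between -0.064 and -0.044.

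Markers of other cells also moved with the groups, and their part in these results was not tested. Of 14 erythroid markers on the array 10 were detected, and all 10 had higher means in LN (median difference 1.18), with medians by fetus from -0.65 to 3.18 in LN and from -1.52 to 0.24 in HN, and HBA stood between 12.88 and 16.83 in all fetuses. Of 10 neutrophil and myeloid precursor markers 9 were higher in LN (median 1.09), with medians by fetus from 0.12 to 1.19 in LN and from -1.44 to 0.41 in HN. In the neutrophil list L10 was at -0.99, next to L1 (-1.44) and below the other 6 fetuses, and in the erythroid list it was at -0.36. In the list of 4 biliary markers L10 was the lowest fetus (-0.37, others -0.17 to 0.30), as it was for the splicing genes. Markers of cycling cells were split 7 higher and 6 lower (median 0.008), and L10, the lowest fetus for the splicing genes, had the highest cycling median (0.30). All 8 lymphocyte markers were lower in LN (median -0.155). Of 9 endothelial markers 7 were higher (median 0.125), of 10 macrophage markers 8 were lower (median -0.073), and of 8 stellate and mesenchymal markers 5 were lower (median -0.13).

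**Figure D5:**
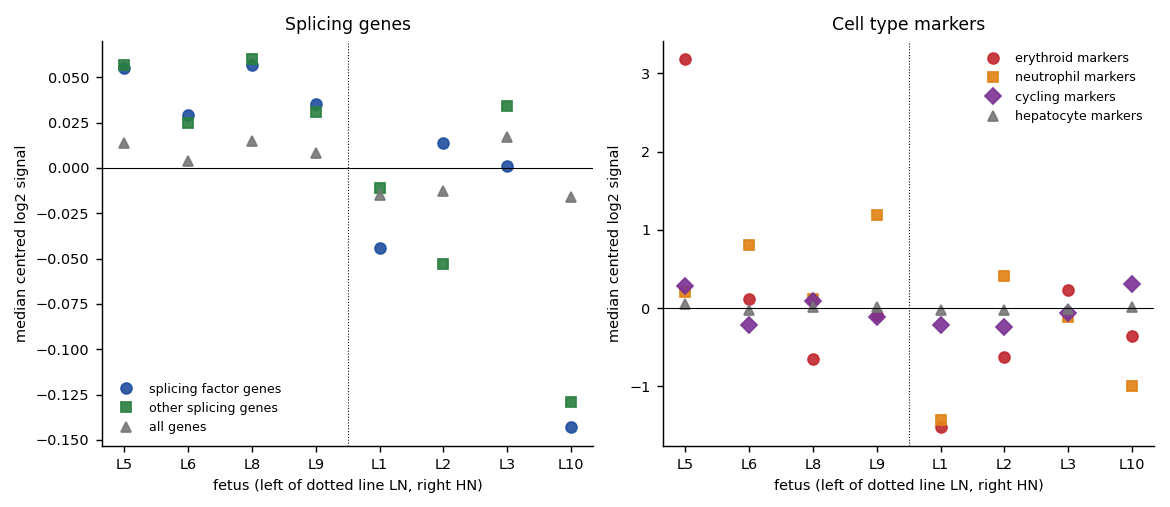
Median log2 signal by fetus, relative to each gene's mean, of the 71 splicing factor genes, 141 other splicing genes and all genes (left) and of marker lists (right). Both splicing lists were lowest in L10, whereas erythroid markers were highest in L5 and cycling markers highest in L10 and L5.

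A list of other splicing genes, written from known roles, gave a similar picture. Of 141 detected, 104 were higher and 37 lower in LN (73.8% higher against 51.6% of all genes, median 0.087 against 0.007). With limma 0 reached an adjusted p of 0.05, and at an unadjusted p of 0.05 4 were higher (background 3.3%) and 0 lower (background 2.75%). Without L10 the number higher was 92 and the median 0.048. By fetus the median of this list was 0.025 to 0.060 in LN and -0.13 to 0.034 in HN, so the groups overlapped through L3. The groups did not overlap for 7 genes of this list, all higher in LN (background 2.59%), among them 3 of the exon junction complex, which is deposited on mRNA after splicing. The 16 detected genes of that complex and of SR-related proteins were 12 higher and 4 lower (median 0.093). MAGOH, a core subunit, had a mean of 11.28 ± 0.08 in LN and 10.94 ± 0.08 in HN (SD, n = 4), and the lowest LN fetus (11.18) was above every HN fetus. The MAGOH difference was 0.335 (SE 0.11, limma adjusted p = 0.760). Its partner RBM8A (0.18, SE 0.11) and the anchoring helicase EIF4A3 (0.20, SE 0.10), named here after their values were seen, also did not overlap. Groups overlapped for CASC3 (0.087), RNPS1 (0.012) and PNN (-0.046) of the same list. MAGOHB, the paralogue of MAGOH, was higher by 0.58 (SE 0.24) with overlapping groups, and PSPC1, a paraspeckle protein, by 0.38 (SE 0.13). Of the 14 detected genes of the SMN complex and its partners, which load the Sm ring, 11 were higher (median 0.15). The 7 kinases that phosphorylate SR proteins were split 3 higher and 4 lower (median -0.040), with CLK4, named after its value was seen, at -0.345.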

How the data were processed

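The authors' scanner files give background-subtracted spot intensity from Agilent Feature Extraction 11.0.1.1, per the submitters' processing notes, without normalization between arrays. The authors also deposited log2 values for 31068 probes. Of these, 98.9% lay within 0.001 of the quantile-normalized log2 intensity of the same probes, and the study's methods name quantile normalization. That table served as an alternative. Here, control and outlier spots were removed, log2 signals of repeated spots were averaged, and quantile normalization used 43637 probes. Detection required a signal well above background on 4 or more of the 8 arrays, which 33440 probes met. Accessions of 26743 probes were matched to genes of the ARS-UCD2.0 reference table. The array was designed on another build, so no coordinates are given.

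LN and HN were compared in limma 3.58.1 under R 4.3.3, 2-sided, by lmFit with eBayes and Benjamini-Hochberg adjustment over detected probes, where 2113 probes had an unadjusted p of 0.05 or less, 0 passed an adjusted p of 0.05 and the lowest was 0.634. Exact permutation tests were 2-sided over the 70 divisions of 8 fetuses. The model was tested on simulated data with changes larger than any member difference here, so that test does not cover differences of the size reported. Summaries were made in Python 3.11.15. Slide could not enter a model.

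Members and lists were chosen with earlier results of these data known, and role groups after the members' values were seen. Named are members without overlap or with an unadjusted p of 0.05 or less, the extreme and brightest genes of each subfamily, genes of a written list of roles, up to 8 with probes in both directions, and up to 3 other splicing genes per direction; genes named to complete a small count or group are further cases. The alternatives were 75th percentile scaling, normexp (offset 50), the authors' log2 table, no filter, only probes detected on all 8 arrays, a trended and robust eBayes, Student's test, the mean over probes, array position as a block, and each fetus left out.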

Additional observations from a re-analysis of the deposited data

Results flagged for a closer look

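In 8 of 106 groups of 4 values that were checked, 1 fetus lay far from the other fetuses of its group by Dixon's test, and chance alone marks about 1 group in 20. Within HN, L10 was low for HNRNPD (12.74, others 12.91 to 12.93) and for SRSF4 (10.54, others 10.71 to 10.73). L2 was low for HNRNPUL1 (12.90, others 13.03), and high for SNRPE (12.97, others 12.69 to 12.71) and for the median of the LSM genes (0.109 relative to each gene's mean, others -0.064 to -0.044). L1 was low for LSM5 (8.75, others 9.32 to 9.44). Within LN, L9 was high for LSM10 (11.77, others 11.08 to 11.19) and L6 was high for SRSF5 (11.16, others 10.82 to 10.88).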

How the results depend on the processing

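Under 17 alternatives 0 members reached a limma adjusted p of 0.05, and the lowest was 0.491, with scaling to the 75th percentile. The members' median stayed above that of all genes by 0.033 (without L10) to 0.12 (75th percentile scaling). The number of members higher at an unadjusted p of 0.05, which was 3, became 6 with 75th percentile scaling (2.51% of all genes), 9 with normexp (4.7%), 7 with no filter (4.27%), 6 with trend and robust settings (3.77%), 6 with Student's test (4.37%) and 1 with array position as a block (2.43%). Leaving out a fetus gave 1 to 5 (1.89% to 4.15% of all genes), where 1 was HNRNPU without L8 or without L10. HNRNPU kept an unadjusted p of 0.05 or less in all 17 alternatives, SF3B3 in 12 and SNRPD1 in 9.

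With a fetus left out, members lower at an unadjusted p of 0.05 numbered 0 to 2 (SRSF5 and U2AF1L4 without L3; 3.61% of all genes), members without overlap 5 to 12 when higher (12 without L2, where 4.69% of all genes did not overlap) and 0 to 3 when lower (SF3A1, PRPF6 and PRPF31 without L8; 3.37% of all genes). The median then ran from 0.005 to 0.11 for SF3A and SF3B genes and from 0.065 to 0.16 for SNRP genes, and without L10 it was 0.052 for LSM and -0.040 for PRPF genes. The difference changed sign for U2AF2 with 75th percentile scaling (0.007) and the mean over probes (0.11), for PRPF19 (-0.017) and SF3B5 (-0.016) with normexp, and for HNRNPUL1 (-0.094) and PRPF6 (0.14) with the mean over probes. With a fetus left out it changed sign for HNRNPUL1 (-0.036 to 0.066), LSM5 (-0.49 to 0.20), PRPF19 (-0.032 to 0.14), SF3B5 (-0.060 to 0.11), SNRPA (-0.17 to 0.043), SRSF1 (-0.12 to 0.035), SRSF10 (-0.025 to 0.098), SRSF11 (-0.11 to 0.26), U2AF1 (-0.125 to 0.048) and U2AF2 (-0.047 to 0.033). The cause was not tested. No paired analysis was possible because the groups share no replicate numbers, and the block by array position pairs places on the slides, not animals.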
